A study of Mus musculus with 11 samples.

Results

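The myelin protein genes described here are Mbp, Mobp, Mal, Opalin, Cnp, Mag, Mog, Cldn11 and Ugt8a. They were chosen by name as components of the compact and the non-compact part of the myelin sheath, and each of the 9 symbols matched 1 row among the 37991 genes of the deposited table. RNA abundance had been measured in cultures of mouse neural stem cells before and after a change of medium, and the question asked of these genes was which of them appear in medium with and without added thyroid hormone (T3).

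Myelin is the stack of membrane that oligodendrocytes wrap around axons in the central nervous system. Most of the stack is compact, held together by proteins such as myelin basic protein, while channels of cytoplasm and the innermost and outermost turns stay non-compact and carry other proteins. Oligodendrocyte precursors leave the cell cycle and switch on myelin genes in a sequence, with Cnp early and Mog late, under transcription factors such as Sox10 and Myrf. T3 acts through nuclear receptors and is known as a timer of this step, which is why it is a common supplement in oligodendrocyte media.

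All cultures came from frontal cortex of C57BL/6J mouse embryos at E14.5 and were expanded in a NeuroCult proliferation medium. The NSC group was taken at day 0 (3 libraries). The other groups were taken after 4 days in a differentiation medium: the Astrocyte medium was DMEM with 1% N-2 and 1% fetal bovine serum (3 libraries), the Neuron medium was Neurobasal with 2% B-27 (3 libraries), and the Oligodendrocyte medium was this same Neurobasal and B-27 mix with 30 ng/mL T3 (2 libraries). Each name thus denotes a medium, and cells were not sorted. B-27 is known to contain some T3 itself, so the Neuron medium is called here medium without added T3. No culture was kept in proliferation medium until day 4, so medium and time in culture cannot be told apart in comparisons with NSC. The design text calls the replicates biological, but nothing says which cultures or embryos they came from, so p-values measure the spread between these libraries.

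Values are in CPM, read counts scaled to a common library total and not divided by gene length. Spacing of the lowest values put the depth at 49.3 to 66.2 M (mega) reads per library, so 1 read was worth 0.0151 to 0.0203 CPM. Libraries of a group correlated at 0.990 to 0.999 over the 13342 genes tested. Mitochondrial genes held 4.54% to 4.71% in NSC, 6.60% to 7.93% in Astrocyte, 6.82% to 8.91% in Neuron and 6.13% to 6.70% of the CPM total in Oligodendrocyte libraries. NSC libraries thus lay under all day 4 libraries and Oligodendrocyte under Neuron libraries without overlap, and the part of this in the results was not tested. Within the Neuron group, replicate 2 stood at 8.91% and replicates 1 and 3 at 6.91% and 6.82%. Markers of other cell types were present in every day 4 medium. Summed CPM of 8 astrocyte markers, Gfap among them, ran from 14186 to 15683 in Astrocyte, from 8989 to 9828 in Neuron and from 3386 to 3819 in Oligodendrocyte libraries. Gfap weighed heavily in these sums, at 7631 CPM on average in Astrocyte and 2647 in Neuron. Of the 8 markers, 3 were called higher and 5 lower in Astrocyte than in Neuron, beside 40.3% and 22.0% of all genes. In the libraries labelled Neuron, 7 neuron markers summed to 173 to 263 CPM, against 28.9 to 30.1 CPM in NSC libraries. Astrocyte libraries gave similar sums of 175 to 232 CPM, and Oligodendrocyte libraries 146 to 153 CPM. Dcx weighed heavily in these sums, at 147.7 CPM on average in Neuron and 124.8 in Astrocyte. The 6 neuron markers tested were all called higher in Neuron than in NSC, beside 43.5% of all genes. In Astrocyte 5 of the 6 were called higher than in NSC, beside 48.0% of all genes, and 1 was called lower. Levels of single markers differed widely, and Rbfox3, a marker of mature neurons named after its values were seen, averaged 2.34 CPM in Neuron. Summed CPM of 7 microglia markers did not pass 1.32 in any library.

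The number of these genes that reached a fixed level differed between the groups. With presence taken as at least 1 CPM in every library of a group, 4 of the 9 genes were present in NSC (Cnp, Ugt8a, Cldn11 and Mbp), 6 in Astrocyte (Mag and Mal in addition), 8 in Neuron and all 9 in Oligodendrocyte. Mog alone was absent by this rule from the medium without added T3. The count in Astrocyte hangs on the cut, since Mal passed it narrowly there, at 1.02 to 1.82 CPM. Astrocyte libraries of Mog (0.81 to 1.71 CPM), Opalin (0.84 to 1.21 CPM) and Mobp (0.47 to 1.15 CPM) lay on both sides of it. The day 4 groups are parallel cultures, so these counts give no order in time. Summed over the 9 genes, NSC libraries gave 71.0 ± 4.81 CPM (SD, n = 3), Astrocyte libraries 350 ± 32.5 (SD, n = 3), Neuron libraries 1622 ± 53.8 (SD, n = 3) and Oligodendrocyte libraries 1637 ± 233 (SD, n = 2). The sums in Neuron and Oligodendrocyte libraries overlapped, since the Oligodendrocyte libraries stood at 1472 and 1801 and the Neuron libraries between 1562 and 1666. In bulk RNA such as this, fewer cells of a type and less RNA per cell cannot be told apart.

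**Figure D1:**
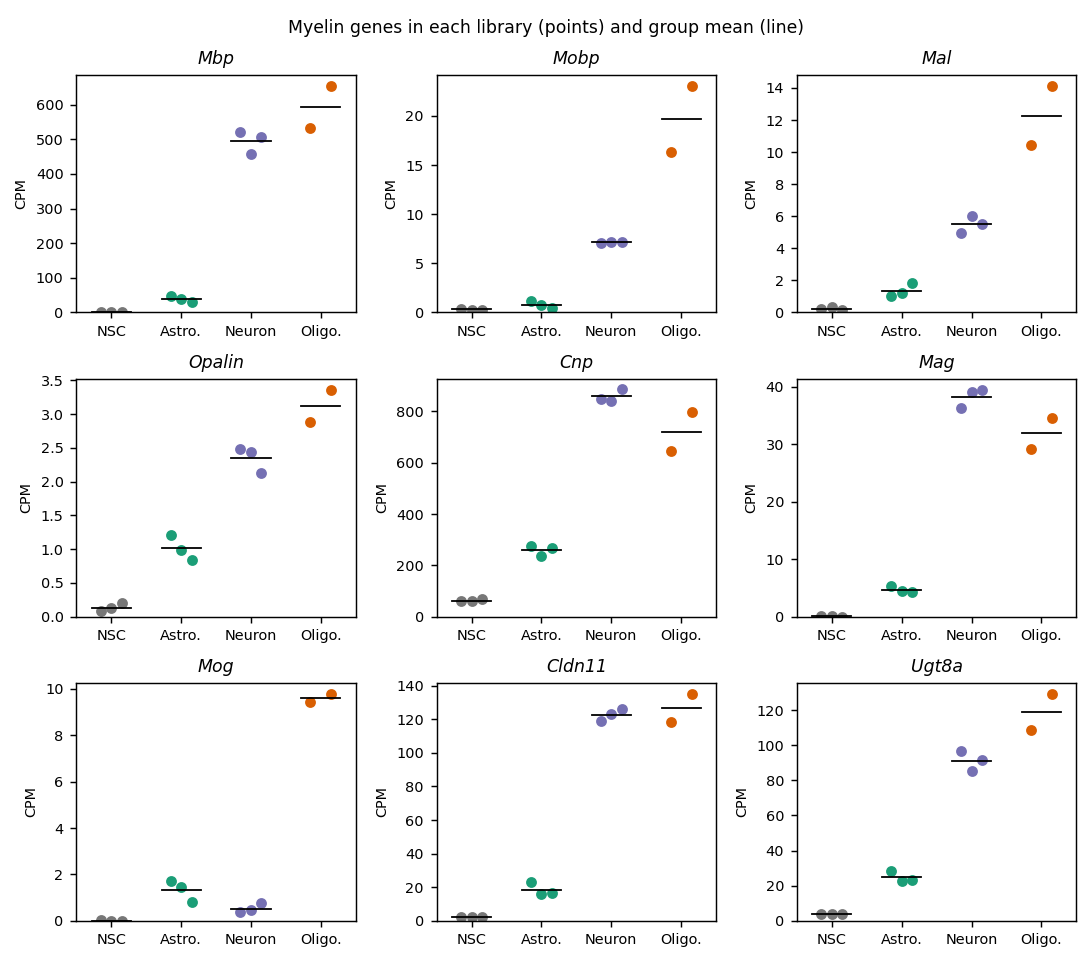
CPM of each myelin gene (vertical axis, from 0, its own scale in each panel) in the 11 libraries, grouped by medium, with a point per library and a line at the group mean. Mog is the gene with Neuron libraries (0.37 to 0.76 CPM) under the Astrocyte libraries (0.81 to 1.71 CPM), and for the other 8 genes the Neuron libraries lie above the Astrocyte libraries.

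Among genes of the compact sheath, Mbp encodes the basic protein that joins the cytoplasmic faces of the membrane. On chromosome 18 its locus also yields golli transcripts, which are made outside myelin, and the gene-level values do not separate them. Mbp was at 1.30, 1.74 and 2.09 CPM in NSC, at 47.0, 37.4 and 30.0 in Astrocyte, at 522, 456 and 507 in Neuron and at 533 and 655 in Oligodendrocyte libraries. Both Oligodendrocyte libraries lay above all Neuron libraries, but the lower one did so narrowly. Mean Mbp was 290-fold higher in Neuron than in NSC, and 1.20-fold higher in Oligodendrocyte than in Neuron. The last difference, 0.26 on the log2(CPM + 1) scale (95% CI -0.09 to 0.60, adjusted p = 0.173), did not pass the threshold of 0.05 set for a call.

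Mobp, a small basic protein of compact myelin, was at 0.39, 0.28 and 0.25 CPM in NSC and at 1.15, 0.76 and 0.47 in Astrocyte libraries. In Neuron libraries Mobp stood at 7.06, 7.17 and 7.16 CPM, and in Oligodendrocyte libraries at 16.3 and 23.1 CPM. The order was thus the same as for Mbp, with a wider gap between the media that differ in T3. Mobp was 2.76-fold higher with added T3 by the ratio of means, a log2 difference of 1.33 (SE 0.16, adjusted p = 5.75e-06).

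Mal encodes a proteolipid of membrane rafts that takes part in membrane traffic to the sheath. It was at 0.19, 0.35 and 0.15 CPM in NSC, at 1.02, 1.22 and 1.82 in Astrocyte, at 4.93, 6.03 and 5.53 in Neuron and at 10.4 and 14.1 in Oligodendrocyte libraries. The groups did not overlap. Mal was 2.23-fold higher in Oligodendrocyte than in Neuron by the ratio of means, a log2 difference of 1.02 (SE 0.15, adjusted p = 5.78e-05).

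Opalin, a transmembrane glycoprotein of oligodendrocytes, had the lowest level per kilobase of exon among these 4 genes in Oligodendrocyte libraries. It was at 0.08, 0.12 and 0.20 CPM in NSC, at 1.21, 0.98 and 0.84 in Astrocyte, at 2.48, 2.44 and 2.13 in Neuron and at 2.88 and 3.36 in Oligodendrocyte libraries. The rise with added T3 was small (1.33-fold by the ratio of means, log2 difference 0.30, adjusted p = 0.025) and lost its call in 7 of 13 alternatives. It was not called without Oligodendrocyte replicate 2 (0.21, adjusted p = 0.197) or without Neuron replicate 3 (0.25, adjusted p = 0.0801). With all libraries kept, it was not called after quantile normalization (0.10, adjusted p = 0.455) or median-of-ratios scaling (0.18, adjusted p = 0.151), with a pseudocount of 0.1 (adjusted p = 0.151), with only both groups in the fit (adjusted p = 0.0508) or with a replicate block (adjusted p = 0.0561).

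Cnp and Mag belong to the non-compact sheath. Cnp encodes a phosphodiesterase of the cytoplasmic channels and is known to come on early in the lineage. Its level per kilobase of exon was the highest of the 9 genes in every group. In CPM it stood at 60.6, 59.5 and 67.3 CPM in NSC, 276, 236 and 268 in Astrocyte, 849, 842 and 886 in Neuron, and 644 and 797 in Oligodendrocyte libraries. Both Oligodendrocyte libraries lay under all Neuron libraries. Cnp shares 8912 bases with Dnajc7 on the opposite strand, a gene at 112 to 180 CPM in these libraries, and whether the counting used strand is not given in the sources used here, so reads of the pair may be mixed.

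Mag, a lectin of the innermost myelin turn that faces the axon, was nearly unread in stem cells. It was at 0.02, 0.02 and 0 CPM in NSC, which is 2 reads over the 3 libraries, at 5.29, 4.46 and 4.34 in Astrocyte, at 36.4, 39.0 and 39.4 in Neuron and at 29.2 and 34.5 in Oligodendrocyte libraries. From these reads, its rate in Neuron was 3376 times that in NSC, with a 95% interval of 934 to 27886 that covers counting error only. Mag and Cnp therefore reached their highest levels in medium without added T3.

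Both genes fell slightly with added T3, by 0.26 on the log2 scale each (adjusted p = 0.0277 for Cnp and 0.0336 for Mag). Neither fall held its call in every setting: that of Cnp was lost in 6 of 14 alternatives and that of Mag in 5 of 14, among them the fit with all libraries and no filter on low values (adjusted p = 0.0642 for Cnp and 0.0689 for Mag), where the differences were as in the main fit. Without Oligodendrocyte replicate 1 the difference was -0.11 for Cnp (adjusted p = 0.399) and -0.14 for Mag (adjusted p = 0.323). Other scalings gave larger falls in part. Cnp stood at -0.415 after median-of-ratios scaling but at -0.14 after quantile normalization (adjusted p = 0.212), and Mag stood at -0.455 after quantile normalization. Leaving out a Neuron library moved the differences little. Without Neuron replicate 3 they were -0.24 for both genes and neither was called (adjusted p = 0.0722 for Cnp and 0.0871 for Mag), and without Neuron replicate 2 Mag was at -0.25 and not called (adjusted p = 0.0559).

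Mog encodes a glycoprotein of the outermost myelin surface and is known as a late marker of mature oligodendrocytes. It was read at 0.02, 0 and 0 CPM in NSC (1 read over the 3 libraries), at 1.71, 1.44 and 0.81 in Astrocyte, at 0.37, 0.45 and 0.76 in Neuron and at 9.42 and 9.77 in Oligodendrocyte libraries. Oligodendrocyte libraries stood apart from all others, and the order of Neuron and Astrocyte was the reverse of that in the other 8 genes. Mean Mog was 18.2-fold higher in Oligodendrocyte than in Neuron and 7.27-fold higher than in Astrocyte. The log2 difference from Neuron was 2.80 (SE 0.15, adjusted p = 4.01e-09). From reads, the rate in Oligodendrocyte was 1688 times that in NSC, with a 95% counting interval of 302 to 66732.

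Cldn11 encodes the claudin of the tight junctions that run between myelin turns. It was at 2.13, 1.97 and 2.53 CPM in NSC, at 23.2, 16.0 and 16.3 in Astrocyte, at 119, 123 and 126 in Neuron and at 118 and 135 in Oligodendrocyte libraries. Neuron and Oligodendrocyte libraries overlapped, and their log2 difference was 0.04 (95% CI -0.25 to 0.33, adjusted p = 0.795), with a sign that turned under other scalings and without Oligodendrocyte replicate 2. An interval of this width leaves room for changes of either sign.

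Ugt8a, the enzyme that makes galactosylceramide, the typical lipid of myelin, was at 3.73, 4.08 and 4.01 CPM in NSC, at 28.6, 22.6 and 23.0 in Astrocyte, at 96.8, 85.4 and 91.5 in Neuron and at 108 and 129 in Oligodendrocyte libraries. It rose with added T3 by 0.37 on the log2 scale (SE 0.11, adjusted p = 0.00682). Without Oligodendrocyte replicate 2 the difference was 0.25 (adjusted p = 0.119), and after median-of-ratios scaling, which equalises the typical gene between libraries, it was 0.22 (adjusted p = 0.0658).

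Against NSC, all 9 genes were called higher in each day 4 medium. In Astrocyte the background share of all tested genes called higher was 48.0%, in Neuron 43.5% and in Oligodendrocyte 48.1%. The median log2 difference of the 9 genes was 2.04, 3.76 and 3.97 in these comparisons, beside medians over all genes of 0.15, 0.06 and 0.19. The comparisons share the NSC libraries. Smallest was Mobp in Astrocyte (0.44, adjusted p = 0.00943), which was not called without Astrocyte replicate 1 (0.30, adjusted p = 0.0518) and turned sign after quantile normalization. Mal in Astrocyte also lost its call after quantile normalization, where its difference was 0.29 (adjusted p = 0.1) against 0.93 in the main fit.

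Between the media, 9 of 9 genes were higher in Oligodendrocyte than in Astrocyte, where 28.7% of all tested genes were called higher. The median difference was 2.50, beside 0.04 over all genes. Against Neuron, 8 of the 9 were lower in Astrocyte (22.0% of all genes), 7 of them at least 2-fold (2.95% of all genes), and Opalin by 0.74. Mog was higher in Astrocyte, by 0.59 (SE 0.14, adjusted p = 0.00192), in a comparison where 40.3% of all genes were called higher. The rise of Mog was called in all 14 alternative settings run for it, with log2 differences of 0.19 to 1.17.

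In the comparison of Oligodendrocyte with Neuron, whose media differ by the added T3, 5 of the 9 genes were higher (Mog, Mobp, Mal, Ugt8a and Opalin), beside 43.9% of all genes, and 2 were lower (Cnp and Mag), beside 23.6% of all genes. A rise of at least 2-fold was seen for 3 of them, Mog, Mobp and Mal, and for 8.96% of all genes. The counts of 5 and 2 calls were close to these background shares, and the median difference of the 9 genes was 0.30, beside 0.15 over all genes. After median-of-ratios scaling, which moved that general median to 0.02 and the share of higher among all calls from 65.1% to 51.5%, 3 of the 9 were higher (Mog, Mobp and Mal). Without Oligodendrocyte replicate 2 the same number, 3, was higher. Mog, Mobp and Mal were called in all 13 alternative settings run for them, with log2 differences of 1.40 to 4.00, 1.01 to 1.57 and 0.71 to 1.22.

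**Figure D2:**
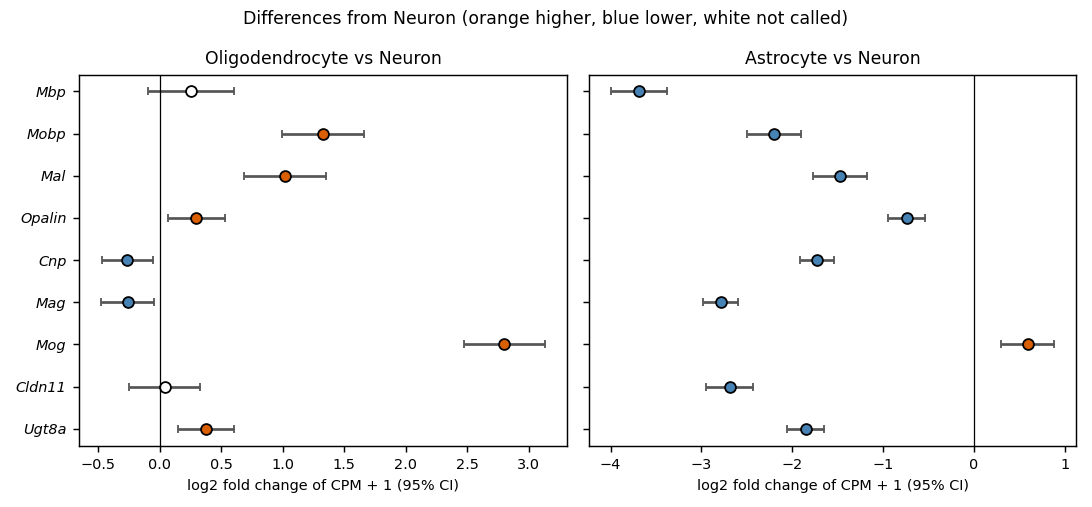
Log2 fold change of CPM + 1 (horizontal axis) of the 9 genes in Oligodendrocyte against Neuron (left) and Astrocyte against Neuron (right), with 95% confidence intervals from limma; orange marks genes called higher, blue genes called lower and white genes not called. Mog (2.80), Mobp (1.33) and Mal (1.02) lead on the left, and on the right Mog (0.59) is the gene higher in Astrocyte.

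The make-up of the summed signal differed between the groups. Mean shares of Cnp, Mbp and Cldn11 moved steadily from NSC over Astrocyte and Neuron to Oligodendrocyte, while those of the other genes did not. Ugt8a, for example, held 5.56%, 7.04%, 5.62% and 7.27% of the sum in that order. For each gene the share of the 9-gene sum can be followed across groups, although shares of different genes also depend on gene length. Cnp made up 88.0% ± 0.54 of the sum in NSC libraries (SD, n = 3), then 74.2% ± 3.00 with the Astrocyte medium (SD, n = 3), 53.0% ± 1.06 with the Neuron medium (SD, n = 3) and 44.0% ± 0.35 with added T3 (SD, n = 2). Mbp went the other way, from 2.40% ± 0.44 (SD, n = 3) over 10.9% ± 1.89 (SD, n = 3) and 30.5% ± 1.32 (SD, n = 3) to 36.3% ± 0.11 (SD, n = 2). Mog was 0.376% ± 0.123 of the sum in Astrocyte (SD, n = 3), 0.0323% ± 0.0119 in Neuron (SD, n = 3) and 0.591% ± 0.0689 in Oligodendrocyte (SD, n = 2). All 9 genes were lower in Oligodendrocyte replicate 1 than in replicate 2, while their shares of the sum in these 2 libraries were close.

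**Figure D3:**
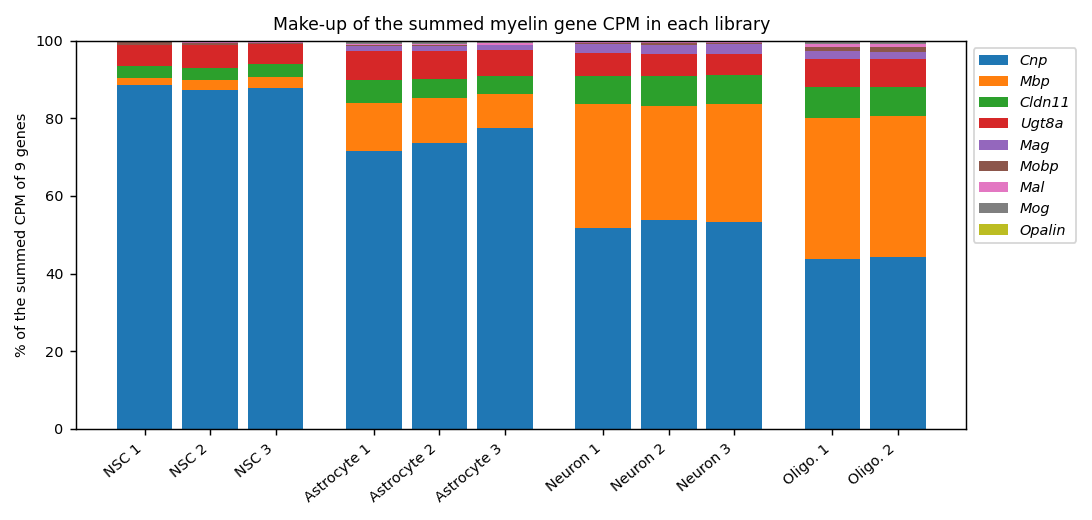
Share of each gene in the summed CPM of the 9 genes (vertical axis, percent) in each of the 11 libraries (bars). The Cnp share falls from 88.0% in NSC to 44.0% in Oligodendrocyte on average while the Mbp share grows from 2.40% to 36.3%.

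Divided by exon length, levels could be compared between genes. Exon lengths came from GENCODE M21 by Ensembl identifier, a later annotation than the one behind the table, so these values are approximate. On this scale Cnp led every group, at 17.2 CPM per kilobase in NSC and 198 in Oligodendrocyte. In Neuron the order was Cnp (236), Cldn11 (65.6), Mbp (58.5), Ugt8a (20.1), Mag (9.40), Mal (1.98), Mobp (1.04), Opalin (0.80) and Mog (0.31), with no overlap between the libraries of neighbours. In Oligodendrocyte Mbp (70.1) and Cldn11 (67.7) overlapped, and Mog (5.63) came sixth, above Mal (4.42), Mobp (2.88) and Opalin (1.06). Mog thus moved past 3 genes between these media.

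Across the 11 libraries, log2(CPM + 1) of the genes other than Mog correlated with each other at Pearson's r of 0.859 (Mobp and Cnp) to 0.999 (Mbp and Cldn11), and Mog with the others at 0.551 to 0.736. These values describe 11 libraries that share 4 media, and the spread between media sets them. Outside the 9 genes, those closest to their mean standardised profile, among genes with at least 10 CPM in a group, were Elovl7 (r = 0.9969), Tmeff2 (0.9968), Tmem163 (0.9962), Gltp (0.9955) and Mpzl1 (0.9955). Fa2h, the fatty acid hydroxylase of myelin galactolipids, was the closest gene to each of Cnp, Mag and Cldn11 (r = 0.9971 to 0.9988). For Mog the closest was Kndc1 (r = 0.9915), at 0.16 CPM in NSC, 5.88 in Astrocyte, 1.59 in Neuron and 88.9 in Oligodendrocyte, on average. Closest to the remaining genes were Mpzl1 for Mbp, Cnksr3 for Mobp, Arpc1a for Mal, Tmeff2 for Opalin and Slc24a3 for Ugt8a.

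Promoter sequences are shown for a gene that rose mainly with added T3 (Mog), one that rose in steps (Mobp) and one that did not rise with T3 (Cnp). Each is the 250 bases before the RefSeq start on build GRCm38.p6, read 5′ to 3′ on the gene's strand, while the table's own coordinates are on mm9. Capitals mark ACAAAG on either strand, a form of the core that SOX factors such as Sox10 bind.
Mog (chr17:37023399-37023648, minus strand): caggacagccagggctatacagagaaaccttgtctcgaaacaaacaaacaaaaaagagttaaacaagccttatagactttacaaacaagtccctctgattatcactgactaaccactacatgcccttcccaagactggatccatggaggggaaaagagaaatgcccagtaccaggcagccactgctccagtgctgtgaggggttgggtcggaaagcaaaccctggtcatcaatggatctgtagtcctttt
Mobp (chr9:120149492-120149741, plus strand): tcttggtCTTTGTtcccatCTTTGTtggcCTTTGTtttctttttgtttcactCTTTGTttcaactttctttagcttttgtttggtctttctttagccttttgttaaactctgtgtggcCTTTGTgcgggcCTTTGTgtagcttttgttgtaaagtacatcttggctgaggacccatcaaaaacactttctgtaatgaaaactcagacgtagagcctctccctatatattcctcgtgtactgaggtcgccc
Cnp (chr11:100574689-100574938, plus strand): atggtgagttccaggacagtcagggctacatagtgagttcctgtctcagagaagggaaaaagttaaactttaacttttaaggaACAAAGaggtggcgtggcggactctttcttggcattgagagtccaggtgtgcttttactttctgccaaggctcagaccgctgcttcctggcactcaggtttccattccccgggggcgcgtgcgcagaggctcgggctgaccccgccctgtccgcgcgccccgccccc

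The Mobp window held 6 such matches, all on the minus strand, and it was the only 1 of 32851 windows in the RefSeq table with that many. It is rich in T, and the motif was counted after the sequence had been looked at. Cnp, Opalin and Mag windows held 1 match each (for Mag in 2 of its 3 windows), and Mog, Mal, Cldn11 and Ugt8a none, beside 16.5% of all windows with a match. Mbp, on chromosome 18, was left out, and windows were used for the other 8 of the 9 genes. None of their 10 windows held AGGTCA, the hexamer core bound by thyroid hormone receptors and other nuclear receptors, on either strand, beside 14.0% of all windows. A second SOX core form, ACAATG, was in none of them either (10.7% of all windows). These are matches of letters in short windows, and binding was not measured here.

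On mm9, the table places Mobp at chr9:120058860-120090602 and Cnp at chr11:100436218-100453043 (plus strand), and Mog at chr17:37147691-37160343 and Mal at chr2:127458962-127482431 (minus strand). Mag is at chr7:31684202-31699851, Opalin at chr19:41136964-41151603 and Ugt8a at chr3:125568277-125641468 (minus strand), and Cldn11 at chr3:31048868-31063246 (plus strand). All reads of a gene were summed by the authors, so exons and isoforms are not resolved.

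Of 11 other sheath genes 9 were tested, and in Oligodendrocyte against Neuron 5 were higher and 2 lower, with a median of 0.27. These counts, like those of the lists that follow, stand beside 43.9% of all genes higher, 23.6% lower and a median of 0.15 over all genes, and for the sheath genes they lie near those shares. Tspan2, a tetraspanin of the sheath, rose from 11.7 to 60.3 CPM (log2 difference 2.27, adjusted p = 1.45e-09), and Gjc3, a connexin, from 78.0 to 142.7 CPM (0.87). Pllp (0.66) and Jam3 (0.27) were higher as well. Jam3 was not called after median-of-ratios scaling (0.11, adjusted p = 0.0868) or quantile normalization (0.10, adjusted p = 0.128). Nfasc (0.54, adjusted p = 0.0287) lost its call when Neuron replicate 2, Oligodendrocyte replicate 1 or Oligodendrocyte replicate 2 was left out. With all libraries kept, Nfasc was not called with no filter on low values (adjusted p = 0.0851) or after median-of-ratios scaling (adjusted p = 0.0894). Nor was it called with only both groups in the fit (adjusted p = 0.0531) or with a replicate block (adjusted p = 0.0535). Omg fell from 62.4 to 28.1 CPM (log2 difference -1.13), and Ermn, named after its values were seen, from 1.47 to 0.41 CPM (-0.80).

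Of 7 enzymes of myelin lipids 4 were higher in Oligodendrocyte than in Neuron and 2 lower, with a median of 0.25, also near the shares over all genes. Cers2, which makes ceramides with very long chains, rose from 73.7 to 137.9 CPM (log2 difference 0.90, adjusted p = 7.13e-08), and Elovl1, which elongates fatty acids, from 17.0 to 30.0 CPM (0.78). Gal3st1, which sulfates the product of Ugt8a, fell from 21.5 to 14.8 CPM (-0.52, adjusted p = 0.000248). Fa2h was at 36.1 and 30.8 CPM (-0.22, adjusted p = 0.0746) and was called lower after median-of-ratios scaling (-0.37, adjusted p = 0.00436).

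Known activators of myelin genes did not move together. Of 10 tested, 3 were higher and 6 lower in Oligodendrocyte than in Neuron, with a median of -0.23. Myrf, which binds myelin genes directly and is listed under its older symbol Gm98, averaged 2.95 CPM in NSC, 21.7 in Astrocyte, 103 in Neuron and 179.7 in Oligodendrocyte. Its rise between the last pair (log2 difference 0.82, SE 0.23, adjusted p = 0.00573) was not called without Oligodendrocyte replicate 2 (0.74, adjusted p = 0.0546), nor was that of Sox8 (0.24, adjusted p = 0.0765). Nkx6-2, a homeobox factor of late oligodendrocytes, rose from 4.16 to 14.2 CPM (1.56, adjusted p = 1.43e-07). Sox10, which opens the myelin programme and stays on in mature cells, fell from 134.8 to 37.0 CPM (log2 difference -1.83, adjusted p = 9.1e-08), with no overlap between the libraries of these media. Nkx2-2 fell from 38.8 to 10.3 CPM (-1.82) and Zfp488 from 41.3 to 16.0 CPM (-1.29). Olig2, at 272 and 230 CPM, was called lower (-0.24, adjusted p = 0.0317) but lost that call without either Oligodendrocyte library and without Neuron replicate 1 or 3.

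Genes known to answer T3 marked the medium. Hr, a corepressor induced by T3 receptors, went from 9.02 CPM in Neuron to 167 in Oligodendrocyte (log2 difference 4.08, adjusted p = 4.4e-11), and Klf9 from 28.6 to 96.4 CPM (1.72, adjusted p = 2.03e-08). Hr also averaged 34.7 CPM in Astrocyte and 0.91 in NSC, so it shared with Mog the order Oligodendrocyte, Astrocyte, Neuron, NSC. Klf9 did not share it, at 25.9 CPM in Astrocyte (log2 difference from Neuron -0.14, adjusted p = 0.231). Thrb, a T3 receptor, rose by 0.52 from Neuron to Oligodendrocyte, and averaged 25.1 CPM in Astrocyte and 24.8 in Oligodendrocyte. Nrgn, at 0.31 CPM in Neuron and 0.33 in Oligodendrocyte, was not called (adjusted p = 0.786) and was highest in NSC, at 14.25 CPM. Dio3, which inactivates T3 and was named after its values were seen, was listed at 0 in all libraries but those of Oligodendrocyte, at 0.71 and 0.84 CPM.

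**Figure D4:**
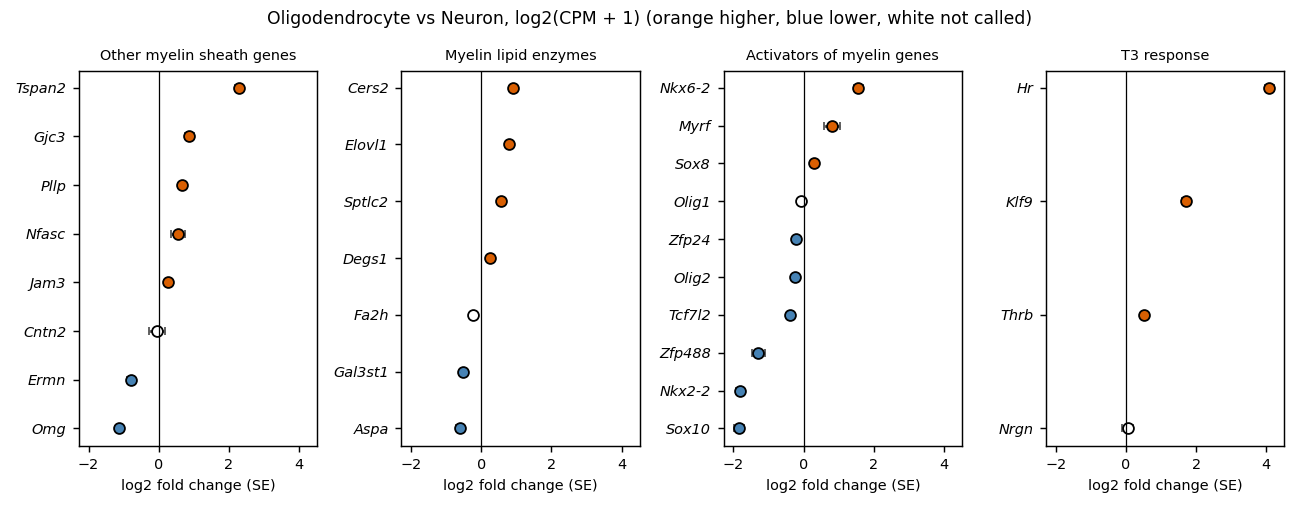
Log2 fold change of CPM + 1 with its standard error (horizontal axis) in Oligodendrocyte against Neuron for the tested and reported genes of 4 lists, 1 panel each; orange marks genes called higher, blue genes called lower and white genes not called. Tspan2 (2.27), Nkx6-2 (1.56) and Hr (4.08) head their panels, and Omg (-1.13) and Sox10 (-1.83) stand at the foot of theirs.

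Markers of the lineage stages and of other cells moved between the same libraries, and their part in the myelin gene differences was not tested. Of 8 precursor markers 5 were lower and 1 higher in Oligodendrocyte than in Neuron, with summed CPM of 1617 to 1661 against 1910 to 2514. Most of these sums was Ptprz1, at 1314 CPM in Oligodendrocyte and 1826 in Neuron on average, which also stood at 1593 CPM in NSC. Pdgfra, the growth factor receptor of precursors, fell from 210.8 to 66.2 CPM (log2 difference -1.64, adjusted p = 1.04e-07). Of 5 markers of newly formed oligodendrocytes, 1 was higher (Fyn, 0.38) and 2 lower (Bcas1, -0.69, and Gpr17, -0.47, the latter not called without Oligodendrocyte replicate 1, Neuron replicate 1 or Neuron replicate 3), with sums of 2034 to 2186 against 2171 to 2860. Enpp6 was at 163 and 181 CPM and Itpr2 at 207 and 208 CPM in Oligodendrocyte and Neuron, neither called. Without Neuron replicate 2, Enpp6 was called lower (-0.33, adjusted p = 0.0374). Of 6 genes listed for mature oligodendrocytes outside the 9 genes 4 were tested, and 3 of them, Sox10, Ermn and Aspa, were lower (Aspa was named after its values were seen). Sox10 is on before the mature stage as well, so its fall does not speak for that stage alone. Ermn (1.47 and 0.41 CPM in Neuron and Oligodendrocyte) and Aspa (4.61 and 2.68 CPM) were low in both media. Of 8 astrocyte markers 7 were lower, Gfap by 3.21 and Aqp4 by 3.15 on the log2 scale. Of 6 neuron markers tested 1 was higher and 4 lower, with sums of 146 to 153 against 173 to 263. Pdgfrb was the 1 vascular or mesenchymal marker tested and fell from 37.5 to 8.82 CPM (-1.98).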

How the data were processed

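The authors deposited a table of CPM per gene and library, on mouse build mm9, rounded to 2 decimals, per the file headers. The submitters' processing notes name TopHat2 2.0.8, HTSeq 0.6.1, edgeR 3.2.4, R 3.0.0, bcl2fastq 1.8.4 and HOMER without roles. Strand use in counting is not given in the sources used here. Listed genes held 75.0% to 80.2% of the CPM total.

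Values were transformed to log2(CPM + 1), so fold changes of low genes are understated. Testing was limited to the 13342 genes that reached 1 CPM in 2 or more libraries. These were fitted with limma 3.58.1 in R 4.3.3 on all 11 libraries, with 1 mean per group and a mean-variance trend. The 6 comparisons used two-sided moderated tests with Benjamini-Hochberg adjustment over all genes tested. Rounding left read numbers as estimates, so no count model was used. For Mag and Mog against NSC, reads were estimated from CPM and depth and pooled over the libraries of a group. The interval of their ratio is an exact binomial interval, which leaves out the spread between libraries. Depth came from the spacing of values under 3 CPM, on which 99.9% to 100% of them lay. The procedure was tested on simulated data.

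Named genes are the 9 members, list genes with at least 10 CPM in a group mean, and the nearest genes in pattern; list genes under 10 CPM that are named were chosen after their values were seen. Members and lists were chosen with earlier results of these data known. The lists covered other sheath genes, lipid enzymes, activators, brakes, T3 response and cell type markers; Map2 matched no row, and some list genes are not reported here. Alternatives were other pseudocounts, filters, scalings, variance models, a replicate block and leaving out each library.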

Additional observations from a re-analysis of the deposited data

How the results depend on the processing

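Counts of all genes called stayed within 1.5 times under every alternative run, and 732 values of single myelin genes under alternatives kept direction and call, while 23 lost the call and 4 turned sign. In Oligodendrocyte against Neuron, 2 myelin genes were lower in the main fit, 1 with a pseudocount of 0.1, 0 with no filter on low values, 1 after quantile normalization, 1 with only both groups in the fit, 1 with a replicate block, and 0 to 2 when each library was left out in turn. Myelin genes higher in that comparison numbered 5, against 3 after median-of-ratios scaling and 3 to 5 with each library left out. A stricter filter, a mean of at least 10 CPM, removed Mobp, Mal, Opalin and Mog and left 5 genes tested: 5 were then higher than NSC in each medium, 5 higher in Oligodendrocyte than in Astrocyte, 5 lower and 0 higher in Astrocyte than in Neuron, and 1 higher in Oligodendrocyte than in Neuron. Cldn11 in Oligodendrocyte against Neuron turned to -0.11 after median-of-ratios scaling and to -0.09 (-0.085) after quantile normalization, and ranged from -0.05 (-0.054) to 0.14 with a library left out. Mobp in Astrocyte against NSC turned to -0.20 after quantile normalization (adjusted p = 0.187). Causes were not tested, apart from the fewer genes tested under the stricter filter.

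The share of higher among calls in Oligodendrocyte against Neuron was 65.1%, 51.5% after median-of-ratios scaling and 48% after quantile normalization. Deviations of same-numbered libraries from their group means correlated at -0.51 to 0.41, over 0.1 in 6 of 15 pairs, and those of other pairs at -0.54 to 0.54. Deviations within a group of 2 or 3 libraries are tied to each other, so these values cannot show whether replicate numbers pair the samples. With the replicate block 8894 genes were called in this comparison, against 9006. A group of 2 libraries limits the precision for Oligodendrocyte, and after leaving out 1 the lone library is assumed to vary like the other groups. Values of Mog and Mag in NSC rest on 1 and 2 reads.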

Other observations

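Genes known to hold back myelination and genes of peripheral myelin were also followed. Of 8 brakes on myelin genes, 5 were lower and 0 higher in Oligodendrocyte than in Neuron by limma, with a median log2 difference of -0.47. Over all genes 23.6% were lower and 43.9% higher, with a median of 0.15. The Notch target Hes5 fell from 23.4 to 3.67 CPM (-2.39, adjusted p = 1.15e-07), Sox5 from 52.3 to 26.4 CPM (-0.95) and Hes1 from 9.33 to 6.26 CPM (-0.51). Sox6, at 266 and 193 CPM (-0.43, adjusted p = 0.0367), was not called without either Oligodendrocyte library or without Neuron replicate 1 or 3. Id2 and Id4 were at 113.9 and 155.2 CPM in Neuron and at 111.9 and 142.6 CPM in Oligodendrocyte, neither called (adjusted p = 0.782 and 0.223). Id4 was called lower after median-of-ratios scaling (-0.28, adjusted p = 0.0124). Lingo1, at 26.5 CPM in Neuron and 29.6 CPM in Oligodendrocyte, was not called either (0.15, adjusted p = 0.161). Without Neuron replicate 2, Lingo1 was called higher (0.22, adjusted p = 0.0324).

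Of 7 peripheral myelin genes 6 were tested, of which 3 were higher and 3 lower in Oligodendrocyte than in Neuron, beside 43.9% and 23.6% of all genes. Pmp22, which encodes a membrane protein of Schwann cell myelin and is also made outside it, rose from 12.5 to 61.0 CPM (log2 difference 2.20, adjusted p = 4.49e-10), and Cdh19 from 25.7 to 42.2 CPM (0.69).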
